A study of Mus musculus with 8 samples.

Results

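Arsenic taken up by a cell is reduced and methylated by enzymes that draw on the same methyl donor, S-adenosylmethionine, as DNA methylation does. DNA methylation was described here in 8 genes of this chemistry, As3mt, Gsto1, Pnp, Mat2a, Mtr, Bhmt, Ahcy and Gnmt, in cells collected as type A spermatogonia from mice whose dams drank arsenite during gestation. The genes were listed by name, and every cytosine from 2 kb upstream of the transcription start site (TSS) to the end of the gene in mm10 RefSeq was taken, whatever its level. They hold 436 of the 2130064 CpG cytosines covered, from 9 in As3mt to 117 in Mat2a. Cytosines from −1 kb to +100 b of the TSS were called the promoter, those from there to the gene end the gene body, and those further upstream the flank.

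The cells came from F1 male offspring of C3H/HeN mice. Dams drank tap water, to which 85 ppm sodium arsenite was added on gestational days 8 to 18 for the arsenic group. Testes were collected on postnatal day 6, and cells were enriched on magnetic beads with an antibody to CD49f (Itga6). Each of the 4 control and 4 arsenic samples was a pool of 8 testes from 4 mice, so that single animals cannot be told apart and litters are not named in the labels. The males were exposed only in the womb, and no sample tells arsenic that acted on the dam from arsenic that reached the fetus.

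S-adenosylmethionine is made from methionine by methionine adenosyltransferase, whose catalytic subunit outside the adult liver is Mat2a. When a methyl group has been given away, S-adenosylhomocysteine is left, which inhibits methyltransferases and is cleaved to homocysteine by Ahcy. Homocysteine is turned back into methionine by Mtr, the cobalamin-dependent methionine synthase, or by Bhmt, which takes its methyl group from betaine and is known mainly from liver and kidney. Gnmt, an abundant liver enzyme, uses surplus S-adenosylmethionine to methylate glycine. As3mt transfers methyl groups to trivalent arsenic, Gsto1 is a glutathione transferase that can reduce pentavalent methylated arsenic, and Pnp is a purine nucleoside phosphorylase that can reduce arsenate in vitro. Housekeeping genes of this kind usually have a CpG-rich, unmethylated start and a methylated body, and the starts of genes restricted to other tissues are more often methylated.

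Reduced representation bisulfite sequencing (RRBS) reads DNA next to MspI sites, CCGG, and bisulfite treatment turns unmethylated cytosines into T while methylated ones stay C. The samples held between 96428439 and 133406260 reads on CpGs, and every cytosine used had at least 10 reads in each sample. The level of a cytosine is the percentage of its reads that were methylated, and the level of a region in a sample is the unweighted mean over its cytosines, given where at least 3 were covered. The cells were checked against marker promoters before the 8 genes were read. Promoters that male germ cells keep unmethylated and somatic cells methylate, such as those of Dazl and Ddx4, had an average level of 80.2% over the 7 of 10 genes covered, from 60.2% (Tdrd1) to 94.9% (Dazl), with single samples between 78.8% and 84.2%. Promoters of maternally imprinted genes, unmethylated in male germ cells, stood at 61.4% over 6 of 10 genes, with samples between 55.1% and 66.5%. The stretch from 2 to 4 kb upstream of H19, where male germ cells carry methylation on each allele, stood at 66.3% over 4 cytosines. These marker levels go against the label of type A spermatogonia, and the levels below are those of the cells collected. In a pool of cells, a level between the extremes cannot be split into cell types, alleles and single cells.

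RRBS saw the starts of 5 of the 8 genes. The promoters of Gsto1, Mtr, Ahcy, Mat2a and Gnmt held 41, 36, 6, 59 and 6 covered cytosines. The 6 of Ahcy lie between +89 and +99 in the 5′UTR, and 5 of the 6 of Gnmt between +69 and +99 in the first exon, so these promoters were read at their downstream edge. The promoters of As3mt, Bhmt and Pnp held 0 covered cytosines. Each of these 3 promoters has 1 CCGG site and 18 to 19 CpGs, against 82 CpGs and 7 CCGG sites in the promoter of Mat2a. The observed-to-expected ratio of CpGs was 0.329, 0.369 and 0.340 in the promoters of As3mt, Bhmt and Pnp and 0.859 in that of Mat2a. The 250 bases before the As3mt start and the 100 before the Mtr start show the contrast between a start that RRBS did not see and one that it did. In the As3mt stretch (chr19:46707208-46707457, plus strand) the 4 CpGs, none covered, are in capitals. In the Mtr stretch (chr13:12258114-12258213, minus strand) the 10 covered CpGs of 12 are in capitals, and they stood at 0.703% over 19 cytosines. Both are given 5′ to 3′ from the RefSeq genome, build GRCm38.p6.
As3mt, −250 to −1: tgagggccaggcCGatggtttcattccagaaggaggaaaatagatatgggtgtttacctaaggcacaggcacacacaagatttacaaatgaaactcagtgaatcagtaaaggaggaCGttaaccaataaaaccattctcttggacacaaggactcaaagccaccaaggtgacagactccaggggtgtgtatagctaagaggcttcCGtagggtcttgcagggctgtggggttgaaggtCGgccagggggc
Mtr, −100 to −1: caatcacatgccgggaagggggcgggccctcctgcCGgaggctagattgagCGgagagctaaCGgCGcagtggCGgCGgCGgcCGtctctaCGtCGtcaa

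Gsto1, Mtr, Ahcy and Pnp were low near the TSS and high beyond 1 kb, and Gnmt, the fifth gene read on both sides of 1 kb, did not have this profile. As3mt and Bhmt were read only beyond 1 kb and Mat2a only within it. Without Gnmt, 274 of 280 cytosines within 1 kb of a TSS had a mean level under 10%, and 83 of 98 further away were over 80%. In Mat2a all 117 cytosines, from −712 to +702, were under 10%, and all lie inside Particl, a noncoding gene on the opposite strand. In Gnmt 53 of 58 cytosines lay between 10 and 80%, close to the TSS as well as far from it. The other genes together held 21 cytosines in that range. Of these, 5 were in Gsto1, between −742 and −658, at 19.8% to 43.5%, inside the noncoding gene Gm30021. Another 8 were in Bhmt, 7 in intron 2 and 1 in exon 8.

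**Figure D1:**
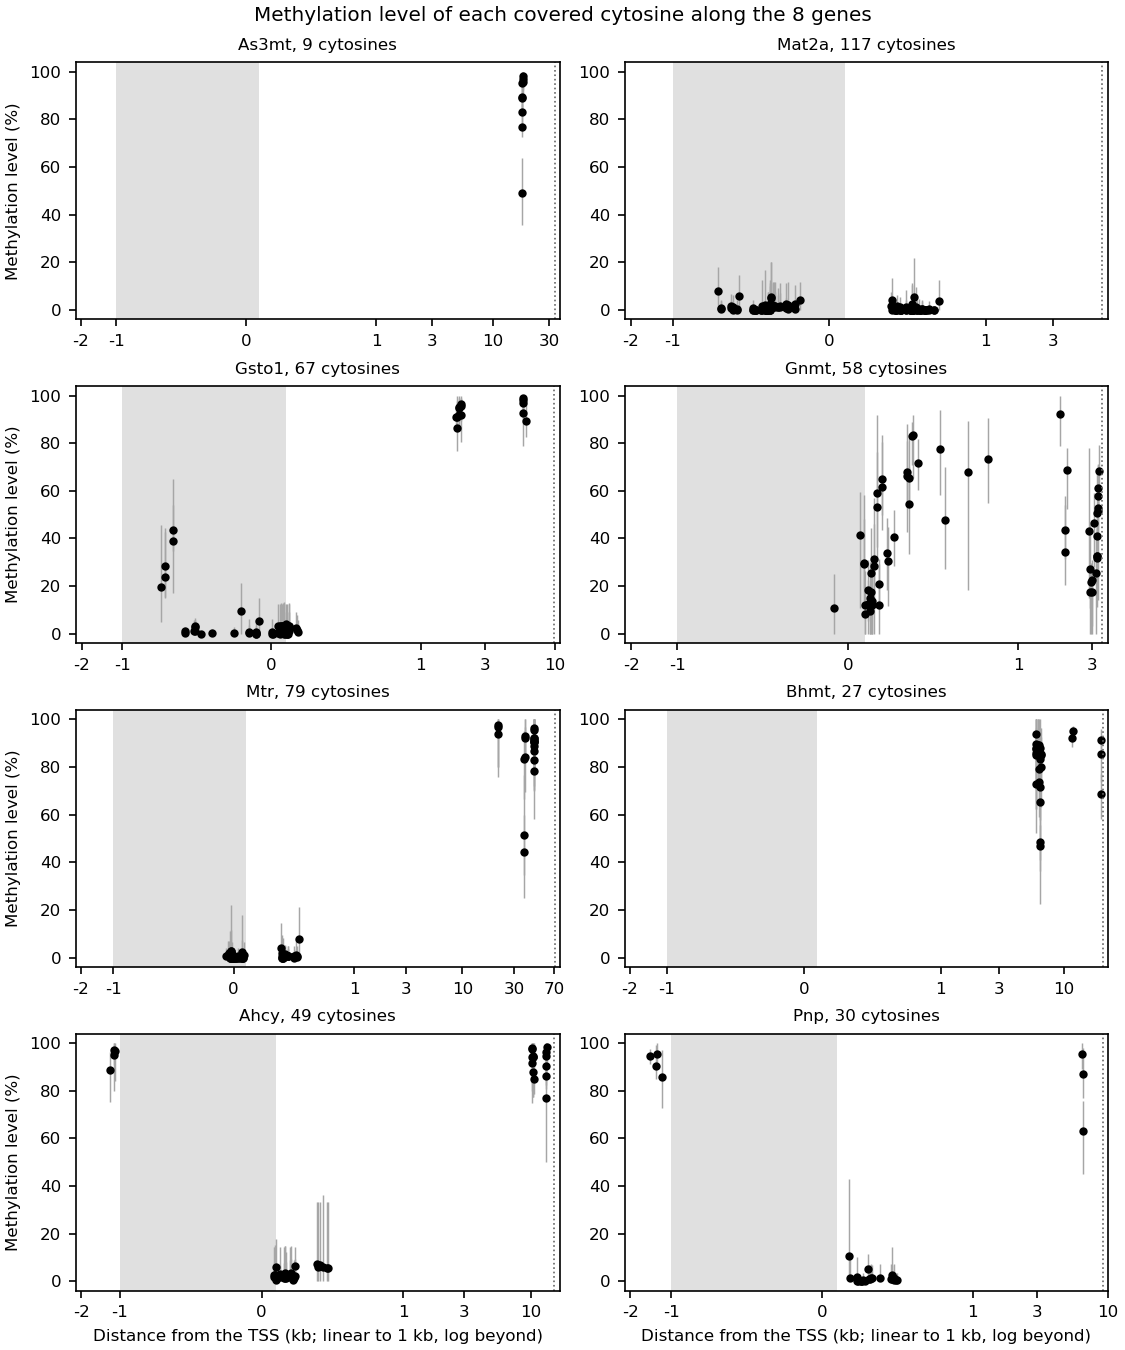
Mean methylation level over the 8 samples (dots) and the range from the lowest to the highest sample (grey lines) of the 436 cytosines, by distance from the TSS in kb, with the promoter shaded and the gene end dotted. The axis is linear to 1 kb and logarithmic beyond. Cytosines near the TSS sit under 10% in Gsto1, Mtr, Ahcy, Mat2a and Pnp, apart from 6 in Gsto1 and Pnp. As3mt and Bhmt have none there, and those of Gnmt near the TSS spread from 8.38% to 83.4%.

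Among the genes that handle arsenic, As3mt was read only in exon 10 and intron 10, at +17536 to +17891 (chr19:46724994-46725349), with 44 to 92 reads per cytosine. Control samples 1 to 4 had body levels of 84.6%, 87.1%, 88.9% and 85.8%, and arsenic samples 87.6%, 84.0%, 83.1% and 85.8%. The groups overlapped, and the difference of −1.47 percentage points was smaller than the spread within either group (86.6% ± 1.84 and 85.1% ± 2.03, SD, n = 4, exact permutation test, two-sided p = 0.314). The exact 97.1% interval of the difference, which holds every constant shift under which the groups overlap, ran from −5.87 to 3.00 points. The 3 exon cytosines averaged 69.6% and the 6 intron cytosines 94.0%. The cytosine at +17561, in the exon, stood at 48.9%.

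Gsto1 had a promoter level of 5.23% ± 1.20 in the control samples, against 5.24% ± 1.33 in the arsenic samples (SD, n = 4). The difference was 0.011 points, with an interval from −2.79 to 2.80 points (exact permutation test, p = 0.971). Its gene body combines unmethylated cytosines near the TSS and methylated ones in introns, and stood at 54.8%, 55.0%, 54.7% and 54.9% in the control and 55.4%, 53.6%, 54.0% and 53.8% in the arsenic samples. Arsenic samples 2 to 4 lay below every control sample and arsenic sample 1 above them, and the means differed by −0.724 points (exact permutation test, p = 0.143, the lowest among the 15 regions of the 8 genes). With all reads of the body pooled, the difference was −5.30 points and with both strands summed −0.328 points. The body within 1 kb of the TSS differed by 1.24 points and beyond it by −2.17 points. Pooling weights cytosines by their reads, so the pooled value also depends on how reads divide between these parts, which was not tested. Without arsenic sample 1 the unweighted difference of the whole body was −1.12 points and the groups did not overlap. The 5 intermediate cytosines upstream averaged 31.2% ± 3.26 in the control samples, against 30.6% ± 2.17 in the arsenic samples (SD, n = 4).

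Pnp was read in the flank (4 cytosines, 92.1% ± 2.68 in the control samples, against 91.0% ± 2.02 in the arsenic samples, SD, n = 4) and in the body (26 cytosines). The body level was 11.1% ± 2.28 and 10.3% ± 0.648 (SD, n = 4). They differed by −0.793 points, with an interval from −4.78 to 1.63 points (exact permutation test, p = 0.657). Without control sample 2 the direction turned (0.241 points), and at a coverage of at least 20 the difference was −1.81 points. Of the body cytosines, 23 lie between +182 and +498 and averaged 1.41%, and 3 lie beyond 1 kb in coding sequence, at 81.9%.

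Of the genes that make or regenerate the methyl donor, Mat2a was under 10% at every cytosine covered. The promoter stood at 1.29% ± 0.764 in control and 1.15% ± 0.625 in arsenic samples, and the covered part of the body, in intron 1, at 0.661% ± 0.449 and 0.311% ± 0.137 (SD, n = 4). The body level was lower than that of all but 0.436% of the gene bodies tested, but its last covered cytosine was at +702. Compared with gene bodies within 1 kb of the TSS only, 3.29% were lower. The differences of −0.136 and −0.350 points had intervals from −1.53 to 1.50 and from −1.05 to 0.383 points (exact permutation tests, p = 0.857 and 0.257). Without control sample 3 the body differed by −0.539 points and the groups did not overlap.

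The Mtr promoter stood at 0.457% ± 0.209 in control and 0.599% ± 0.441 in arsenic samples, and 3.68% of all promoters tested were lower. The body stood at 42.8%, 41.7%, 43.5% and 41.4% in control and 43.7%, 43.7%, 42.7% and 42.3% in arsenic samples. The groups overlapped, with a difference of 0.712 points and an interval from −1.23 to 2.24 points (exact permutation test, p = 0.286). Bhmt, whose start was not covered, had a body level of 82.0% ± 3.23 in the control samples, against 80.7% ± 3.49 in the arsenic samples (SD, n = 4). The −1.29 points between them came with one of the wider intervals, from −8.42 to 6.80 points (exact permutation test, p = 0.629).

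Of the genes that consume the methyl donor or remove its product, Ahcy had a methylated flank (94.6% ± 2.39 in the control samples, against 94.2% ± 2.59 in the arsenic samples, SD, n = 4) and an unmethylated start. The 6 promoter cytosines stood at 2.02% ± 1.36 and 3.34% ± 3.26. The body stood at 35.1%, 37.9%, 41.1% and 38.1% in control and 34.3%, 37.9%, 38.5% and 36.8% in arsenic samples, and the groups overlapped (−1.17 points, interval −6.78 to 3.45 points, exact permutation test, p = 0.429). The body difference was −5.06 points with all reads pooled, −2.22 points with both strands summed and −0.169 points without control sample 3. Within 1 kb of the TSS the Ahcy body differed by −1.97 points and beyond it by 0.0974 points, so here too the pooled value lies outside both parts. Gnmt had a promoter level of 15.8%, 20.5%, 14.1% and 32.0% in control samples and 20.7%, 27.2%, 23.0% and 22.5% in arsenic samples. Control sample 4 was the highest of all and the other control samples were the lowest, so that the difference of 2.75 points had the widest interval of the 15, from −11.3 to 13.0 points (exact permutation test, p = 0.543). Without control sample 4 it was 6.54 points and the groups did not overlap. The Gnmt body stood at 42.9% ± 2.11 and 44.1% ± 3.65 (SD, n = 4), 1.18 points apart (exact permutation test, p = 0.60).

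In none of the 15 regions covered, which are 5 promoters, 8 bodies and 2 flanks, did the control and arsenic samples separate. Among all genes the groups did not overlap in 2.97% of 11972 promoters, 3.90% of 19047 gene bodies and 3.07% of 3905 flanks, so 0 of 15 is near the background. When any 1 sample was left out these shares were 5.52% to 6.26%, 6.48% to 7.62% and 5.58% to 6.43%, against which the separations without 1 sample given above are to be read. With 4 samples against 4 the smallest two-sided p of the exact permutation test is 0.0286, and no value of it can pass an adjustment over all regions. In the fit across all regions, with limma on log2 ratios of the methylated over the unmethylated reads of a region, 0 regions of the 8 genes passed an adjusted p of 0.05 and 0 had an unadjusted p under 0.05, which 5.44% of all promoters, 5.73% of bodies and 5.04% of flanks had. The lowest adjusted p of limma among them was 0.91, and limma called 0 of all regions. Of the bodies 6 were lower and 2 higher in the arsenic samples, with a median difference of −0.758 points against −0.267 points over all gene bodies. Of the promoters 1 was lower and 4 were higher, with a median of 0.142 points against −0.0542 points over all promoters. Over all genes, 11692 of 19047 bodies and 6260 of 11972 promoters were lower. The tallies of the 8 genes depended on the processing. With all reads pooled or with limma, 3 promoters were lower and 2 higher, and 7 bodies lower and 1 higher. The intervals leave room for shifts of about 1 point in the Mtr promoter and the Mat2a body and of over 10 points in the Gnmt promoter. Their lower ends in the Mtr promoter (−0.611 points) and the Mat2a body (−1.05 points) reach past the control means of 0.457% and 0.661%. So do those in the promoters of Mat2a (−1.53 points, control mean 1.29%) and Ahcy (−3.23 points, control mean 2.02%). Decreases of that size cannot occur in these regions.

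**Figure D2:**
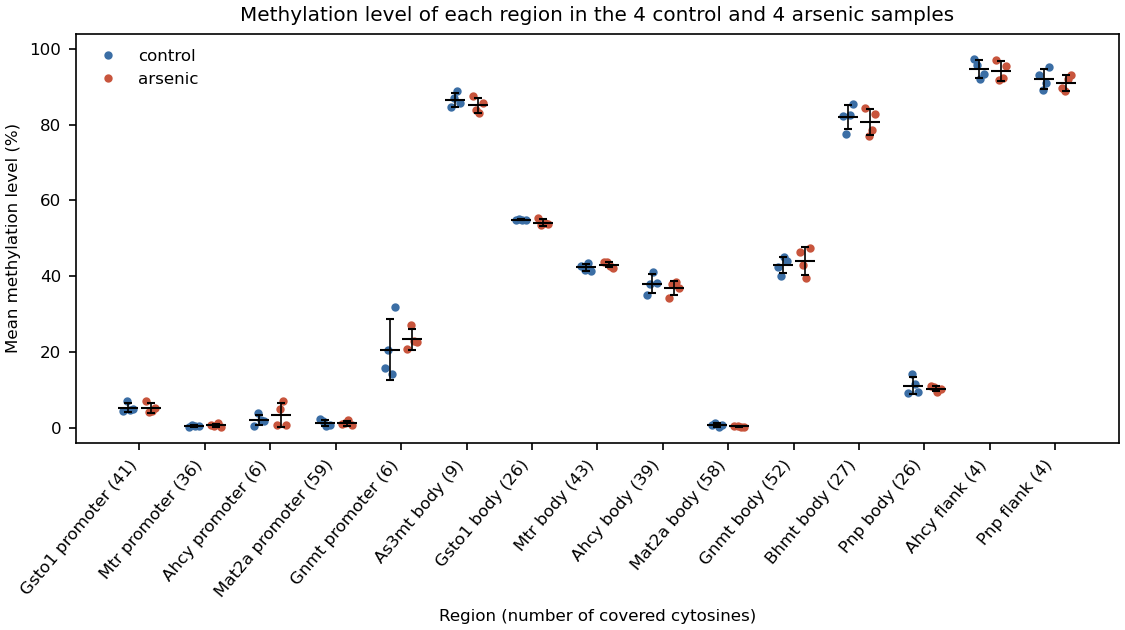
Mean methylation level in percent of each region in the 4 control (blue) and 4 arsenic (red) samples, with the group mean and SD in black and the number of covered cytosines in brackets. Control and arsenic points overlap in all 15 regions, and the Gnmt promoter has the widest spread, from 14.1% to 32.0% in control samples.

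**Figure D3:**
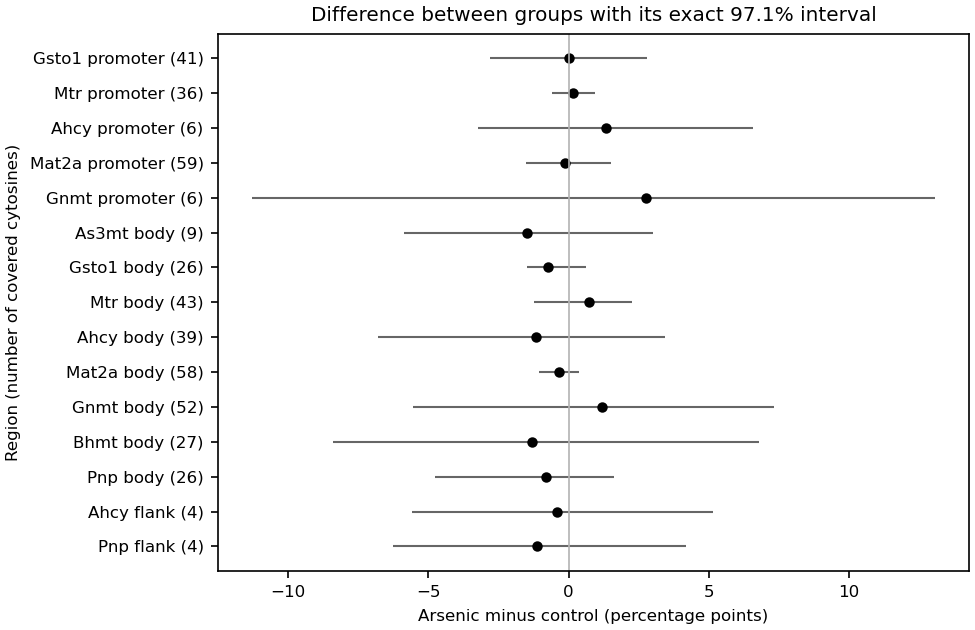
Difference between the group means, arsenic minus control, in percentage points (dots), with the exact 97.1% interval from the permutation test (lines). All 15 intervals contain 0, and they run from −0.611 to 0.925 points in the Mtr promoter and from −11.3 to 13.0 points in the Gnmt promoter.

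Gnmt was split at 1 kb from the TSS after its levels had been seen, so the following is a description with no test. The 30 body cytosines within 1 kb of the TSS averaged 44.0%, and 89.0% of all 12296 genes with such cytosines were lower. Over those genes the median was 1.65%. In the other genes read there, the same part stood between 0.486% (Mat2a) and 3.38% (Ahcy). The 22 cytosines beyond 1 kb averaged 42.8%, below the 75.4% that was the median of 16566 genes, and 15.3% of those genes were lower. The corresponding part of As3mt, Gsto1, Mtr, Ahcy, Bhmt and Pnp stood between 81.3% and 93.4%. Levels in Gnmt were higher further into the first exon and intron, from under 20% at most cytosines between +98 and +140 to over 60% at +202 and to 83.4% at +380. The rise was uneven, and the CpG at +182 stood at 12.0% and 20.8% on the plus and minus strands. The stretch from +90 to +260 (chr17:46728905-46729075, minus strand, GRCm38.p6) holds the end of exon 1 and the start of intron 1. Its 12 CpGs, all covered, are in capitals, and the eighth holds the cytosine at +173 described with the DMCs.
Gnmt, +90 to +260: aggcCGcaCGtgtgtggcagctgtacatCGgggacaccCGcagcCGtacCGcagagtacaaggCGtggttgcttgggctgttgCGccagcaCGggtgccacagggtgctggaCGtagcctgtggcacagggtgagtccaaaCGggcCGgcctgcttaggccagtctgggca

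Within 1 kb of the Gnmt TSS, the body stood at 42.1%, 40.9%, 41.5% and 42.6% in control samples and at 46.1%, 47.0%, 43.1% and 48.4% in arsenic samples. Every arsenic sample lay above every control sample, by 4.36 points on average. Over all genes, this part did not overlap between groups in 2.92%, and was higher in the arsenic samples in 1.17%. Beyond 1 kb the direction was the opposite, from 44.4% ± 4.47 in control samples to 41.2% ± 6.22 with arsenic (SD, n = 4), or −3.16 points, with overlapping groups. The separation near the TSS depended on how cytosines were weighted. With all reads of the part pooled the difference was 3.15 points, and at a coverage of at least 20, which kept 14 cytosines, it was 5.25 points, and in both cases the groups overlapped. When 1 sample was left out it ranged from 3.60 to 5.38 points. In the other genes read within 1 kb the groups overlapped, with differences from −1.97 (Ahcy) to 1.24 points (Gsto1). Beyond 1 kb they overlapped in every gene read, from −3.81 (Pnp) to 2.03 points (Mtr). Covered cytosines at most 500 bases apart were also joined into 23 stretches, and the groups did not overlap in 1 of them. It holds the 5 Gsto1 cytosines between +5754 and +6043, which averaged 95.8% in control and 94.4% in arsenic samples. No share over all genes was computed for such a stretch.

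**Figure D4:**
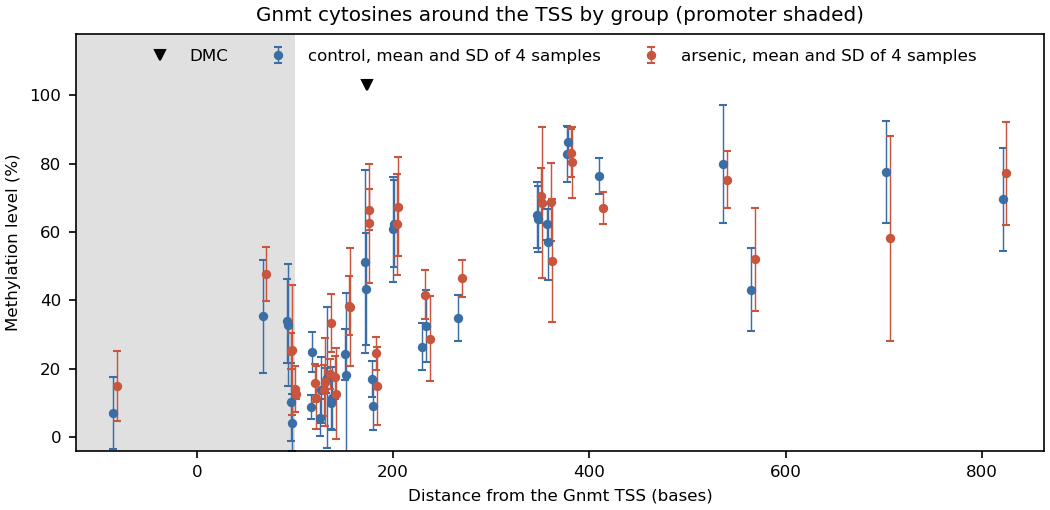
Mean methylation level in percent and SD of the 4 control (blue) and 4 arsenic (red) samples at each covered Gnmt cytosine within 1 kb of the TSS, by distance in bases, with the promoter shaded and the DMC at +173 marked. Levels rise unevenly from under 20% to over 60% across the first exon and intron, with the CpG at +182 at 12.0% and 20.8% on the plus and minus strands. The SDs of the groups overlap at most cytosines.

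Single cytosines were then compared. A differentially methylated cytosine (DMC) had a Benjamini-Hochberg q of at most 0.01 in a likelihood-ratio test of the reads of each group and at least 10 points between coverage-weighted levels. Of the 436 cytosines 3 were DMCs, in Mtr, Gnmt and Pnp, all higher in the arsenic samples (hyperDMCs). When samples were left out in turn, cytosines lower in the arsenic samples passed as well, 3 of the 4 DMCs without control sample 3 and 1 each without control sample 2, control sample 4 or arsenic sample 3. Among all CpGs 0.552% were DMCs and 0.228% were hyperDMCs. The test counts reads as independent. At the 156 cytosines of these genes with a level of 5 to 95%, reads varied between samples of a group with a median dispersion of 1.97, where independent reads give 1. With the dispersion included, 0 of the 436 were DMCs, 26 had an unadjusted p under 0.05 by that F test (5.96%, against 3.87% of all CpGs), and 0 DMCs were found among all CpGs. With limma 0 of the 436 passed as well, and 5.11% of all CpGs had an unadjusted p under 0.05.

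The DMC in Gnmt, position 46728992 of chromosome 17 on the minus strand, is a coding position of exon 1 at +173. It was methylated in 37.8%, 36.4%, 91.7% and 39.6% of reads in the control samples and 62.5%, 72.1%, 60.2% and 71.4% in the arsenic samples. Control sample 3 was the highest of all 8 and the other 3 control samples were the lowest, so the groups overlapped. The coverage-weighted difference was 21.2 points (likelihood-ratio test, q = 0.00274), 28.1 points without control sample 3, and by limma the adjusted p was 0.975. Its partner on the other strand, 1 base away, differed by 14.7 points and was no DMC. The cytosine passed as a DMC in 3 of the 8 comparisons that left out 1 sample, those without control sample 3, arsenic sample 1 or arsenic sample 3.

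The DMC in Mtr, position 12212227 of chromosome 13 on the minus strand, lies in intron 22 at +45886. Control samples had 88.6%, 76.9%, 84.2% and 91.7%, and arsenic samples 100%, 100%, 100% and 96.0%, at 13 to 50 reads. This is the one DMC of the 3 at which the groups did not overlap. It differed by 12.0 points (likelihood-ratio test, q = 0.00948, adjusted p = 0.953 by limma), and its partner cytosine on the plus strand by 1.65 points. With both strands summed the difference was 7.27 points (q = 0.0783) and it was no DMC. It passed as a DMC in 2 of the 8 comparisons that left out 1 sample, those without control sample 4 or arsenic sample 4. A cytosine upstream of it in exon 22, at +45682, was also higher in every arsenic sample, by 7.81 points, while its partner on the minus strand differed by 0.200 points (both coverage-weighted).

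The DMC in Pnp, position 50944485 of chromosome 14 on the plus strand, lies in the 5′UTR at +182. The levels were 0%, 20%, 0% and 0% in the control samples and 42.9%, 21.4%, 0% and 0% in the arsenic samples. All methylated reads came from 3 samples, 1 of them a control sample, and 2 arsenic samples had none. The coverage-weighted difference of 16.3 points (likelihood-ratio test, q = 0.00520, adjusted p = 0.972 by limma) was 6.21 points without arsenic sample 1. It passed as a DMC only without control sample 2, arsenic sample 3 or arsenic sample 4 among the 8 comparisons that left out 1 sample. No partner on the other strand was covered.

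In the 5 genes without a DMC the cytosine with the lowest p of the likelihood-ratio test is given as a description. In As3mt it was position 46725245 of chromosome 19, at +17787 in intron 10. Control samples had 92.1%, 96.6%, 92.2% and 92.7% and arsenic samples 87.0%, 81.3%, 83.1% and 85.9%. The groups did not overlap, and the weighted difference of −9.03 points (likelihood-ratio test, q = 0.0452) missed both thresholds of a DMC. The other 5 intron cytosines differed by less. The intron stretch from +17770 to +17895 (chr19:46725228-46725353, plus strand, GRCm38.p6) has its 6 CpGs, all covered on the minus strand, in capitals, and this cytosine lies opposite the G of the second.
As3mt, +17770 to +17895: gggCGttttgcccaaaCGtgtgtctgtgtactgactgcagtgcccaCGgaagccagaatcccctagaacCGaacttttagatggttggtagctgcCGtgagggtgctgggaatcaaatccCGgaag

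In Gsto1 the cytosine at −83 had 13.8%, 15.2%, 3.33% and 7.69% in control samples and 0%, 0%, 4.26% and 0% in arsenic samples, a weighted difference of −9.05 points with a q of 0.00601, just short of the 10 points of a DMC. The cytosine at +96 in Ahcy differed by −5.65 points with a q of 0.00181. It read 0% in every arsenic sample, and in control sample 1 too, with up to 15.2% in control sample 2. Its partner on the other strand differed by 5.10 points in the opposite direction. The difference was −1.87 points with both strands summed (q = 0.382) and −2.2 points without control sample 2 (q = 0.111). In Mat2a, at +401 in intron 1, the arsenic samples were also at 0% and the control samples at 9.30%, 12.0%, 0% and 13.3%, a difference of −8.74 points (q = 0.0170), or −4.62 points with both strands summed. In Bhmt the cytosine at +20163 in exon 8 was higher in every arsenic sample, at 89.0% ± 2.14 against 82.0% ± 5.52 (SD, n = 4), with a q of 0.244.

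**Figure D5:**
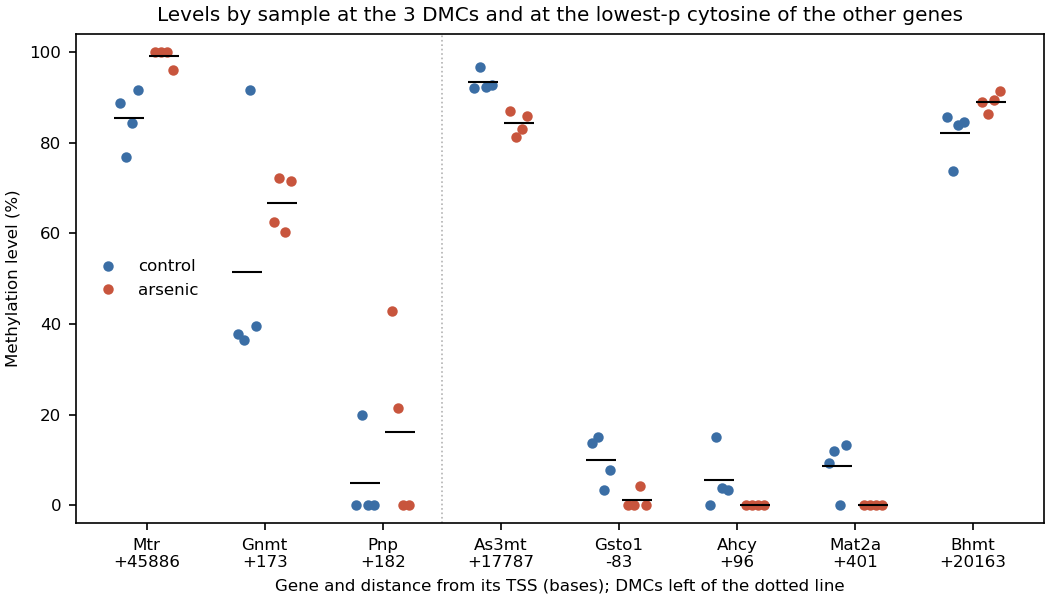
Methylation level in percent in each control (blue) and arsenic (red) sample at the 3 DMCs, left of the dotted line, and at the lowest-p cytosine of the other 5 genes, with group means as black bars. The groups are apart in Mtr, As3mt and Bhmt, and control sample 3 stands at 91.7% in Gnmt while the other control samples are under 40%.

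Over all 436 cytosines, 183 were lower in the arsenic samples, 143 higher and 110 equal, with a median difference of 0. How all CpGs divide in this way was not computed. The groups did not overlap at 6 (1.38%), 3 lower (As3mt +17787, Gsto1 +5756 and Mtr +45569) and 3 higher (Mtr +45682 and +45886 and Bhmt +20163). Among all CpGs the share was 2.10%, with 1.21% lower and 0.892% higher. Of the 6, 3 lie in the same stretch of Mtr, 1 lower and 2 higher. An unadjusted likelihood-ratio p under 0.05 was found at 89 cytosines (20.4%, against 17.8% of all CpGs), of which 24 were in Ahcy, 20 in Mat2a and 19 in Gnmt. In Gnmt 14 of the 19 were higher and in Mat2a 14 of the 20 were lower in the arsenic samples, while in Ahcy 13 were lower and 11 higher.

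The strands of a CpG are covered by separate reads, and they were compared at the 157 CpGs of these genes with both cytosines covered. The median absolute difference in level was 0.962 points, and 54 of the CpGs are in Mat2a, where levels are near 0% and the median was 0.130 points. It was 5.28 points in Gnmt and 4.52 points in Bhmt, which also held the largest, 15.1 points. The differences between groups had opposite signs on the 2 strands at 56 CpGs and the same sign at 37, and one or both were 0 at the others. In Ahcy the signs were opposite at 12 of 13 CpGs. Within 1 kb of its TSS 13 of 14 plus-strand cytosines were lower in the arsenic samples and 10 of 16 minus-strand cytosines higher. Most of these 13 CpGs lie between +90 and +205, and neighbouring cytosines can share reads, so the signs are not independent. In Gnmt the signs were the same at 12 of 19 CpGs. Even numbers made up 67.6% of the unmethylated read counts from 5 to 60 at these cytosines and 60.8% at all CpGs, and 55.0% and 52.8% of the methylated ones. Whether a fragment could be counted more than once at a cytosine is not given in the sources used here, so the read counts, and the q and dispersion computed from them, are those of the counts as deposited.

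The 8 genes were set beside 64 other genes of the same chemistry. They belong to the folate and methionine cycles, glycine cleavage, choline and betaine, and transsulfuration and glutathione. Others belong to cobalamin, methionine salvage and polyamines, arsenic handling and other methyl transfer. Of the 64 genes, 38 promoters and 61 bodies were covered. The promoters had a median level of 1.38%, with 33 of 38 under 10%, against a median of 1.80% over all promoters, and the bodies one of 55.1% against 55.2%. With limma 0 passed an adjusted p of 0.05, and 2 promoters and 5 bodies had an unadjusted p under 0.05. The groups did not overlap in 1 promoter and 2 bodies. The Pemt promoter, of the enzyme that makes phosphatidylcholine by methylation, stood at 0.645% ± 0.198 in the control samples, against 1.81% ± 0.636 in the arsenic samples (SD, n = 4, exact permutation test, p = 0.0286, adjusted 0.964). The bodies of Fpgs, which adds glutamates to folate, and of Slc19a1, the reduced folate carrier, were lower, with differences of −3.50 points (34.9% ± 2.10 and 31.4% ± 0.820) and −2.27 points (71.1% ± 0.787 and 68.8% ± 1.03, SD, n = 4, exact permutation tests, p = 0.0286, adjusted 0.733). Over all genes 1.28% of promoters were higher and 2.98% of bodies lower without overlap, so these counts are near the background. When 1 sample was left out, 1 to 4 promoters and 2 to 8 bodies did not overlap, where the share over all genes was also higher, as given above. Bodies were lower in 38 of the 61 genes and promoters in 22 of 38, with median differences of −0.273 and −0.114 points. Over all genes, 11692 of 19047 bodies and 6260 of 11972 promoters were lower.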

How the data were processed

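RRBS of DNA from cells labelled as type A spermatogonia was done by the authors in 4 control and 4 arsenic pools. Per the labels and the methods of the study, reads were trimmed with Trim Galore 0.6.5, mapped to mm10 with Bismark 0.22.3 and joined with methylKit 1.22.0, keeping each strand separate (versions from the submitters' processing notes). The deposited values are counts of methylated reads, unmethylated reads and coverage per cytosine, without normalization. Coverage equalled methylated plus unmethylated reads with 0 exceptions, and 2130064 cytosines of chromosomes 1 to 19, X and Y were used. Counting error can exceed several points for a single cytosine at an intermediate level, as coverage went down to 10 reads in a sample. It is smaller for region means. Nothing was realigned.

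Genes, exons and TSSs were taken from curated RefSeq transcripts on GRCm38.p6, the build of mm10, and all 436 cytosines are followed by G there. Region levels were tested by two-sided exact permutation over the 70 assignments of the samples, with Benjamini-Hochberg adjustment over all regions of a kind, and with limma 3.58.1 in R 4.3.3 on log2 ratios of region-summed reads (pseudocount 1). DMCs followed the definition of the study, with the likelihood-ratio test of pooled counts in place of methylKit itself. The tools were numpy 2.4.6, pandas 2.3.3, scipy 1.17.1 and matplotlib 3.10.9 in Python 3.11.15, and the tests were checked on simulated data. The alternatives were a coverage of at least 20, both strands summed, all reads of a region pooled, no CpGs in the 0.1% deepest, another promoter window, overdispersion, limma and leaving out each sample. Named cytosines were all DMCs of the 8 genes and, in genes without one, that of lowest p. Pathway genes were named when their groups did not overlap. The genes and lists were chosen with earlier results of these data known, and the split of gene bodies at 1 kb was chosen after seeing the data. Separate cultures or litters are not labelled, so p-values measure the spread between pools. Replicate numbers were not taken to pair the samples. The sequence around the DMC in Mtr is not reported here.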

Additional observations from a re-analysis of the deposited data

Results flagged for a closer look

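In 66 groups of 4 samples examined, over the regions, parts of gene bodies and named cytosines of the 8 genes, 1 sample stood apart from the other 3 of its group in 9, where chance gives about 1 in 20, or 3.3 groups. Several of the named cytosines sit at or near 0% or 100%, where 3 equal values leave the fourth apart.

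In parts of gene bodies, control sample 2 had 3.45% within 1 kb of the Gsto1 TSS while the other control samples were at 0%, and 92.9% beyond 1 kb while the others lay between 94.9% and 95.2%. Beyond 1 kb in Ahcy, control sample 1 had 89.5% and the others 92.7% to 92.9%.

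At named cytosines, control sample 3 had 91.7% at +173 in Gnmt, where the others lay between 36.4% and 39.6%. Control sample 2 had 96.6% at +17787 in As3mt (others 92.1% to 92.7%), 73.8% at +20163 in Bhmt (others 83.9% to 85.7%) and 20% at +182 in Pnp (others 0%). Arsenic sample 3 had 4.26% at −83 in Gsto1 (others 0%), and arsenic sample 4 had 96.0% at +45886 in Mtr (others 100%). The cause was not tested for any of them.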

How the results depend on the processing

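None of the 15 region differences passed 0.05 in the exact test under any other choice of coverage, strand, weighting or promoter window. The promoters of Ahcy and Gsto1 changed sign with all reads pooled (−0.413 and −0.480 points), with strands summed (−0.406 and −0.0625), at a coverage of at least 20 (−2.77 and −0.115) and with limma (log2 ratio −0.16 and −0.11). With the promoter taken as 500 b on either side of the TSS, Ahcy (−1.31 points) and Mtr (−0.0423) changed sign. The Gnmt body became −0.282 points with all reads pooled and −0.017 with limma (log2 ratio). Other differences kept their sign but moved by over 1.5 times. With all reads pooled they were −5.30 points in the Gsto1 body, −5.06 in the Ahcy body, −0.218 in the Mat2a body, −0.0549 in the Ahcy flank, −0.517 in the Pnp flank, −0.341 in the Mat2a promoter and 0.0830 in the Mtr promoter. With strands summed they were −0.328 in the Gsto1 body, −2.22 in the Ahcy body, −0.271 in the Ahcy flank, −0.564 in the Mat2a promoter and 4.61 in the Gnmt promoter. At a coverage of at least 20 they were −1.81 in the Pnp body, 1.94 in the Gnmt body, −0.0523 in the Mat2a body, 0.337 in the Mtr body, −0.464 in the Mat2a promoter and 0.0453 in the Mtr promoter, and the Gnmt promoter had too few cytosines. With the other promoter window they were 4.85 in Gnmt and 0.446 in Gsto1. With 1 sample left out, differences ranged from −1.41 to 0.469 points in the Ahcy flank, −2.17 to −0.169 in the Ahcy body, 0.0478 to 2.23 in the Ahcy promoter, −2.31 to −0.698 in the As3mt body, −2.74 to −0.0754 in the Bhmt body, 0.0415 to 2.73 in the Gnmt body, 0.403 to 1.1 in the Mtr body, −2.16 to −0.108 in the Pnp flank, 0.595 to 6.54 in the Gnmt promoter, −1.12 to −0.524 in the Gsto1 body, −0.624 to 0.592 in the Gsto1 promoter, −0.539 to −0.172 in the Mat2a body, −0.433 to 0.152 in the Mat2a promoter, −0.0429 to 0.304 in the Mtr promoter and −1.40 to 0.241 in the Pnp body. DMCs then numbered 1 to 4, up to 3 of them lower in the arsenic samples, and separated pathway promoters 1 to 4 and bodies 2 to 8, while the share separated over all genes was 5.52% to 6.26% of promoters and 6.48% to 7.62% of bodies. With strands summed 3 were DMCs, of which that in Mtr was no longer one and a second in Gnmt, at +154, was. DMCs numbered 0 with overdispersion, limma or limma with the replicate block. A coverage of at least 20 left 217 cytosines of these genes, of which 1 was a DMC, that in Gnmt at +173. The DMCs in Mtr and Pnp did not have 20 reads in every sample, so they were left out there and not tested. Among all CpGs with that coverage, 9160 of 1285363 were DMCs. Pathway promoters numbered 0 at a coverage of at least 20, and at an unadjusted limma p of 0.05, 2 promoters (3 with the block) and 5 bodies (2 with the block) passed. The causes were not tested.

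Deviations of same-numbered samples correlated at −7.81e-05 to 0.00178, so the numbers were not taken to pair samples. With the replicate block, limma gave an unadjusted p of 0.0105 for the Gsto1 body (−0.40 log2 ratio) and 0.0424 for the Ahcy body (−0.37), with adjusted p over 0.89, and the signs named above for limma were the same (−0.16, −0.11 and −0.017). Limma used the summed reads of a region, so its values for these bodies also depend on how reads divide between their parts. Single cytosines are limited by depth, down to 10 reads in a sample, and region means by the spread of 4 pools. The promoters of As3mt, Bhmt and Pnp were not covered here.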
